A study of Rattus norvegicus with 21 samples.

Results

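The genes described here encode the nuclear subunits of the 5 oxidative phosphorylation complexes of the inner mitochondrial membrane, measured in rat liver after oral dosing with tert-butylphenyl diphenyl phosphate (BPDP), an aryl phosphate ester. Members were chosen by name: every probe set of the array that names 1 gene whose symbol begins with Nduf, with Sdh followed by a to d, or with Uqcr, Cox4, Cox5, Cox6, Cox7, Cox8 or Atp5. This gave 101 probe sets for 90 genes, out of 31042 probe sets and 14217 genes. Complex I held 36 genes, complex II 4, complex III 7, complex IV 17 and complex V 16. The remaining 10 genes (Ndufaf1, Ndufaf3, Ndufaf4, Ndufaf5, Ndufaf7, Ndufaf8, Sdhaf1, Sdhaf2, Sdhaf3 and Sdhaf4) carry the same prefixes but encode assembly factors, which build complexes I and II and are not part of the finished enzymes. The prefixes also took in Atp5if1, the inhibitor of ATP synthase, Cox7a2l, which helps complexes join into supercomplexes, the pseudogene Cox6c-ps1, and Ndufa4 with its paralogue Ndufa4l2. Ndufa4 was counted with complex I by its name, although its protein is now placed with complex IV. A further 7 probe sets that name a matching symbol together with another gene were left out, so Cox7a2 among others has no probe set of its own here.

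The liver RNA came from male Harlan Sprague-Dawley rats given BPDP in corn oil by oral gavage on 4 consecutive days. All groups, the controls included, received the corn oil vehicle. The dose groups were 64.6 mg/kg (0.169 mmol/kg), 129.2 mg/kg (0.338 mmol/kg), 258.1 mg/kg (0.675 mmol/kg), 516.2 mg/kg (1.35 mmol/kg) and 1032.5 mg/kg (2.7 mmol/kg), with 3 arrays each, against 6 vehicle arrays. The protocol speaks of 5 vehicle rats where 6 vehicle arrays are listed, and the labels do not tie arrays to single animals, so p-values measure the spread between these arrays.

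Complexes I to IV pass electrons from NADH and succinate to oxygen and, except for complex II, pump protons; complex V lets the protons back and makes ATP. Most subunits are encoded in the nucleus, in genes whose promoters are known for sites of NRF1, of the ETS factor GABP, of YY1 and of the oestrogen-related receptors (ERR). Hepatocytes are rich in mitochondria, and several subunits of complex IV have a separate form used in heart and skeletal muscle or in testis.

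To show what these promoters look like, the 250 bases before the RefSeq start of 5 members are printed 5′ to 3′ along the gene's strand (build GRCr8). Atp5if1, Sdhaf3, Ndufv1 and Ndufv3 are the genes with a probe set that passed the test over all doses, and Cox8a is a bright complex IV gene with changes near 0, picked after its values were seen. Capitals mark matches to the NRF1 motif (GCGCA and GCGC with any 1 base between them) or the ETS motif CCGGAAG on either strand.
Atp5if1 (chr5:150026678-150026927, - strand): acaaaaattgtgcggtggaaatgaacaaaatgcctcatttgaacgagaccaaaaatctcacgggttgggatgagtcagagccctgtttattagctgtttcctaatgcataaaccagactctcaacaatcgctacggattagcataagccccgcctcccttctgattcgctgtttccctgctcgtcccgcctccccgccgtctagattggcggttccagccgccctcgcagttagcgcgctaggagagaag
Sdhaf3 (chr4:36066713-36066962, + strand): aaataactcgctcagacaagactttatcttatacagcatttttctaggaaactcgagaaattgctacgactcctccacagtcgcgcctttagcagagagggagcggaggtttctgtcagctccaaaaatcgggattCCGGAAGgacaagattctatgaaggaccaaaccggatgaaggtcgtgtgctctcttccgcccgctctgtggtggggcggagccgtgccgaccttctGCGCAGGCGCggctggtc
Ndufv1 (chr1:210734892-210735141, - strand): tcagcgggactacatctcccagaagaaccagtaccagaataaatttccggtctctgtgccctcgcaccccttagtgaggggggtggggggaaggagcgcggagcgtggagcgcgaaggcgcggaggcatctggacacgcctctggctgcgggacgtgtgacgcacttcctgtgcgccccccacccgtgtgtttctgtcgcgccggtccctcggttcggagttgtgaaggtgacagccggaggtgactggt
Ndufv3 (chr20:9613536-9613785, + strand): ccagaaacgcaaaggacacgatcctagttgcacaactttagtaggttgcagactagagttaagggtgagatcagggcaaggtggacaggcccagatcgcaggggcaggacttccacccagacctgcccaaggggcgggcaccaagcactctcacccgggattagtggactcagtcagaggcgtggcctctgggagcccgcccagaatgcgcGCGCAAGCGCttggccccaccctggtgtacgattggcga
Cox8a (chr1:213833624-213833873, - strand): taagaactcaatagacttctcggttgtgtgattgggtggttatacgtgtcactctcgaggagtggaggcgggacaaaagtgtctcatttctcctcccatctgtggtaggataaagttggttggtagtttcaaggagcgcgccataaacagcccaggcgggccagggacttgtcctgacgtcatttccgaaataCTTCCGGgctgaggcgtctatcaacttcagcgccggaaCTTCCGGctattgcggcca

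Sdhaf3 carried an ETS match 114 bases before its start and an NRF1 match 18 bases before it, and Ndufv3 an NRF1 match 39 bases before it. Cox8a carried ETS matches 57 and 19 bases before its start, on the opposite strand, and further matches to the YY1 motif AAGATGGC and the ERR motif AAGGTCA that reach or lie past the start and are not printed. None of these letters was found in the windows of Atp5if1 and Ndufv1. The search covered 300-base windows (250 before the start, 50 after it), both strands and 82 of the 90 genes, since 8 had no window in the table. An NRF1 match was present for 17 of 82 genes (20.7%) against 8.63% of the 11700 measured genes with a window. An ETS match was present for 25 (30.5%) against 15.4%, a YY1 match for 17 (20.7%) against 4.87%, and an ERR match for 11 (13.4%) against 3.45%. Among the 15 genes called in any comparison below, 10 held at least 1 of the 4 motifs, and among the 67 others with a window 40 did. Of the measured genes 782 have several windows and were counted once. A match is a run of letters and no proof of a site.

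**Figure D1:**
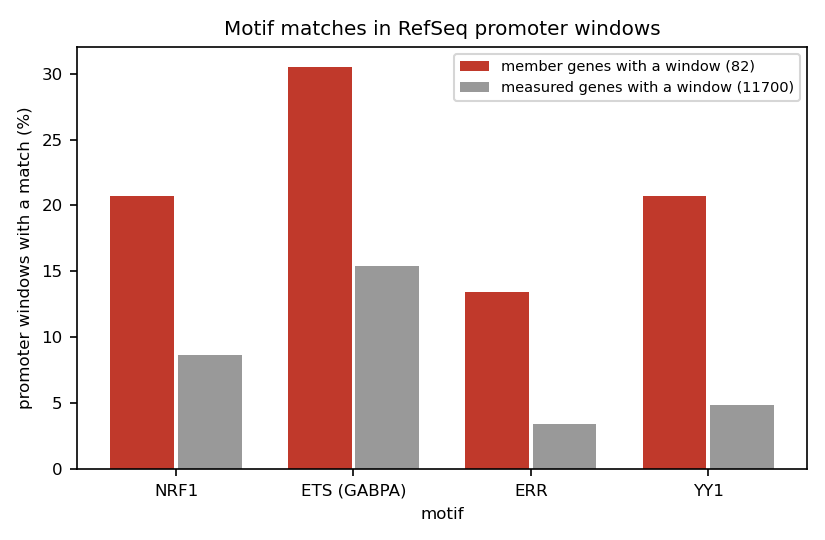
Bars give the percentage of RefSeq promoter windows with at least 1 match to each of 4 motifs, for the 82 member genes and the 11700 measured genes with a window. The member bars stand at 13.4% to 30.5% and the others at 3.45% to 15.4%.

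As a check of the label, 78 of the 90 genes lay above the array's upper quartile on every array. The median over the 90 genes of the mean log2 level on all arrays, dosed ones included, was 11.89, against 7.53 for all genes. The 9 hepatocyte markers were bright on all arrays (mean log2 level 14.24 to 14.37). The muscle, testis or lung forms were dim. Cox4i2, Cox6b2, Cox7b2 and Cox8b had means below the arrays' mean lower quartile of 5.03. Cox6a2 (5.21) and Cox7a1 (5.41) lay just above that quartile. Of the 6 muscle markers, 5 were below that quartile too. No 2 arrays held identical values, and arrays correlated at 0.984 to 0.995 over all probe sets.

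The nuclear subunits as a whole moved little at any dose. The mean log2 level over the 90 genes, with 1 probe set per gene, was 11.11 ± 0.06 (SD, n = 6) in vehicle livers, where arrays ran from 11.07 to 11.20. It was 11.08 ± 0.06 at 64.6 mg/kg, 11.11 ± 0.08 at 129.2 mg/kg, 11.18 ± 0.08 at 258.1 mg/kg, 11.20 ± 0.02 at 516.2 mg/kg and 11.14 ± 0.07 at 1032.5 mg/kg (SD, 3 arrays each). The largest difference from the vehicle, 0.089 at 516.2 mg/kg, is a factor of 1.06; it was 0.040 under loess scaling and 0.139 under median scaling. All 3 arrays of that group lay above the vehicle mean and 2 above the highest vehicle array. Vehicle replicates 5 and 6 had the highest values of their group, and every dose group overlapped the vehicle range.

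By complex, the 516.2 mg/kg arrays stood clear of the vehicle arrays in complex III and among the assembly factors. The complex III mean was 12.54 ± 0.08 in the vehicle group and 12.69 ± 0.02 at 516.2 mg/kg, where all 3 arrays exceeded the highest vehicle array. The assembly factor mean was 8.81 ± 0.15 in the vehicle group and 9.05 ± 0.06 at 516.2 mg/kg, again with 3 of 3 arrays above the vehicle range. The 6 measured core subunits of complex I, those that carry the electron path (Ndufs1, Ndufs3, Ndufs7, Ndufs8, Ndufv1 and Ndufv2), went from 11.35 ± 0.10 to 11.56 ± 0.05, with 3 of 3 arrays above. The whole of complex I differed by 0.062, complex IV by 0.042, complex V by 0.074 and complex II by 0.098 at that dose, each with overlap. At 1032.5 mg/kg these differences were 0.13 for complex II and for the assembly factors, 0.05 for complex III, 0.03 for complex IV, 0.01 for complex V and −0.01 for complex I. All groups are compared with the same vehicle arrays, so the doses are not independent views of a change.

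**Figure D2:**
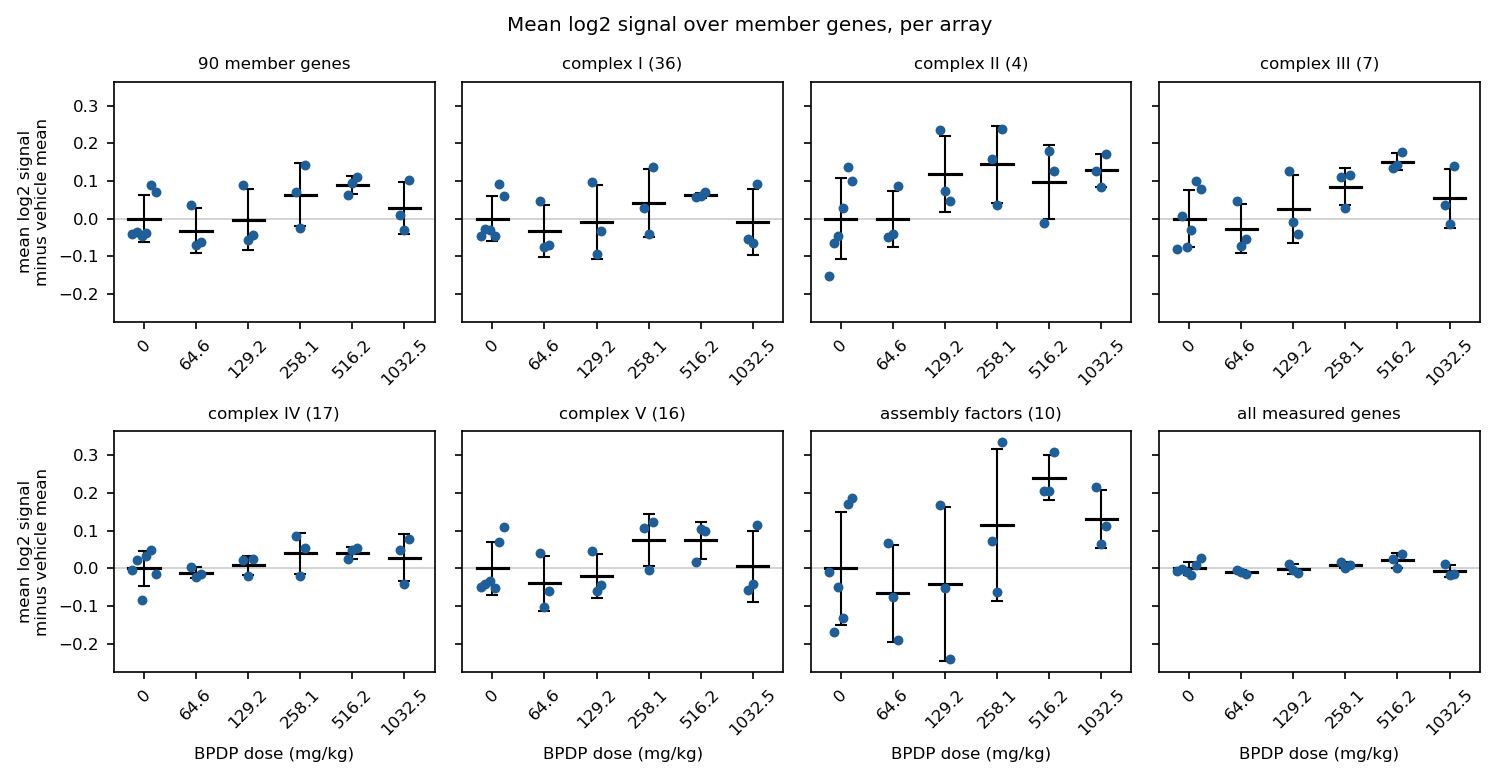
Each point is 1 array: the mean log2 signal over the genes of a set minus the vehicle mean of that set, against BPDP dose in mg/kg (steps drawn evenly). Horizontal lines are group means and error bars are SD (6 vehicle arrays, 3 per dose). The 516.2 mg/kg arrays lie above all vehicle arrays for complex III and the assembly factors.

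The median log2 change of the 90 genes was −0.04, −0.01, 0.05, 0.06 and 0.01 from the lowest to the highest dose, beside −0.00, −0.01, 0.01, 0.00 and −0.01 for all 14217 genes. Changes stayed within 0.2 in either direction for 87, 84, 76, 73 and 68 of the 90 genes. These are 96.7%, 93.3%, 84.4%, 81.1% and 75.6%, beside 84.5%, 84.7%, 76.9%, 66.3% and 70.4% of all genes. Members also varied less among vehicle arrays, with a median SD of 0.106 against 0.135 for all genes. The part of that in the gap between the shares was not tested. The 95% interval of the change excluded a 1.5-fold difference either way for 84 of 90 genes at 516.2 mg/kg and for 85 of 90 at 1032.5 mg/kg. Its median half-width was 0.18, and the same count was not made for all genes.

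Single members passed the test (limma, Benjamini-Hochberg adjusted p under 0.05 over all 31042 probe sets) in numbers close to the array as a whole. At 64.6 mg/kg none of the 101 probe sets passed, beside 0.248% of all probe sets (0.387% of genes). At 129.2 mg/kg none passed, beside 0.348% (0.521% of genes). At an unadjusted p under 0.05 (limma) the counts were 2 (1.98%) and 7 (6.93%), beside 8.15% and 7.25% of all probe sets. With array weights 10 members passed at 129.2 mg/kg, beside 6.86% of all probe sets under the same weights. At 258.1 mg/kg 2 probe sets passed (1.98%), beside 2.35% of all. Both were higher, beside 1.36% higher and 0.992% lower on the whole array, and they stood for 2 of the 90 genes, beside 3.56% of all genes. At 516.2 mg/kg 9 passed (8.91%), beside 6.02%, and all 9 were higher, beside 4.02% higher and 2% lower. At 1032.5 mg/kg 8 passed (7.92%), beside 6.15%, with 6 higher, beside 3.3%, and 2 lower, beside 2.85%. Counted by each gene's brightest probe set, 8 of the 90 genes passed at 516.2 mg/kg beside 8.93% of all genes. At 1032.5 mg/kg 7 did beside 8.95%, so the shares were near the background.

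Counted by arrays, the genes with all 3 dosed arrays above all 6 vehicle arrays were 1 at 64.6 mg/kg (beside 3.23% of all genes), 1 at 129.2 mg/kg (3.03%), 6 at 258.1 mg/kg (5.66%), 9 at 516.2 mg/kg (8.97%) and 7 at 1032.5 mg/kg (6.89%). Those with all 3 below were 3 (2.2%), 1 (2%), 1 (3.52%), 1 (5.25%) and 9 (7.08%) in the same order.

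A slope on the dose step was called for 16 probe sets, beside 10.5% of all probe sets, with 14 rising, beside 5.87%, and 2 falling, beside 4.61%. By brightest probe set the slope called 14 of 90 genes, beside 15% of all genes. The F test over the 5 doses called 4 probe sets, beside 4.62%, and 3 genes by their brightest probe set, beside 6.71%. With array weights it called 17 probe sets, beside 14.4%. Between the 516.2 and 1032.5 mg/kg groups limma called no member and no other probe set of the array (0%). There 14 members (13.9%) had an unadjusted p under 0.05, beside 9.3% of all probe sets. In all, 17 probe sets of 15 genes, counting any probe set of a gene, passed in some comparison and 84 passed in none. No member of complex II or IV was among the 17.

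**Figure D3:**
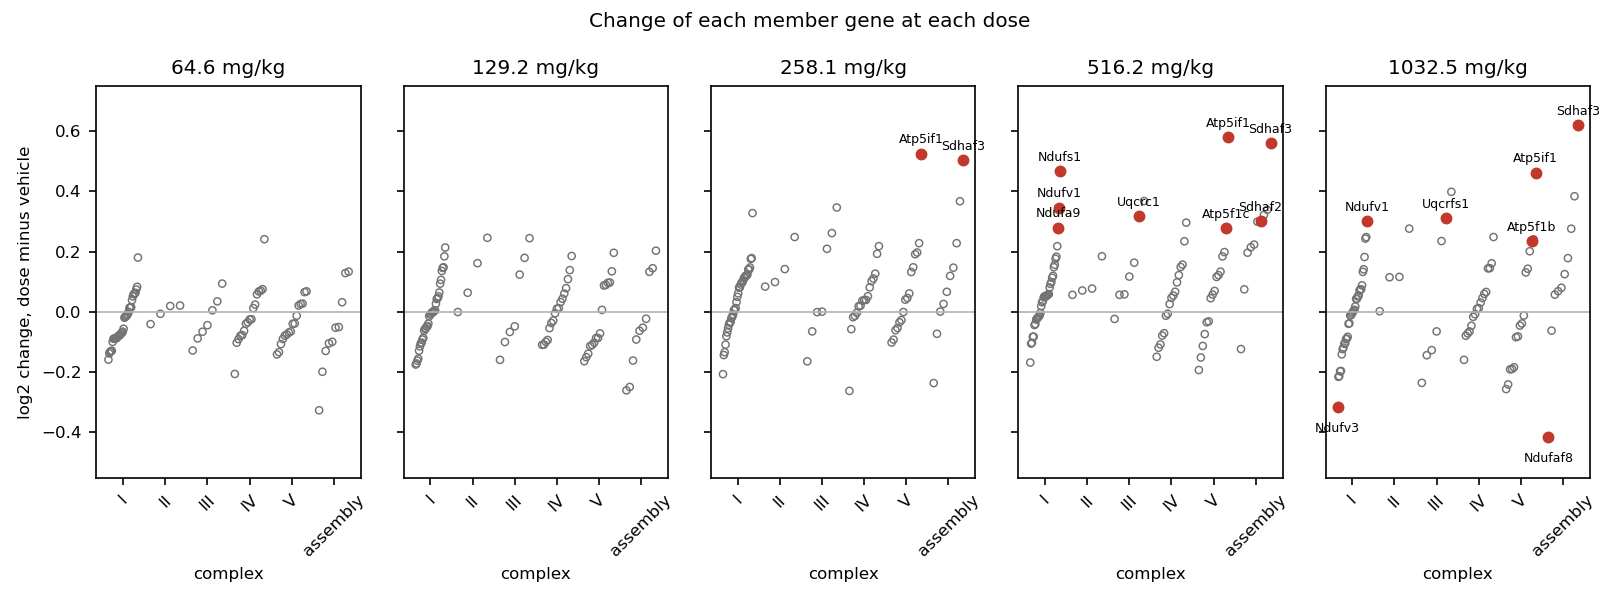
Each point is the log2 change of 1 gene (its brightest probe set) against the vehicle, by complex, in 1 panel per dose. Filled red points, with their symbols, passed at adjusted p under 0.05 (limma); open points did not. Called genes are absent at the 2 lowest doses, and open points lie mostly within 0.2 of the zero line.

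The clearest rise was that of Atp5if1, the small protein that binds ATP synthase and blocks it from running backwards when the membrane potential falls. Its brightest probe set read 9.49 to 9.91 (median 9.60) in the vehicle arrays. The 258.1 mg/kg arrays read 10.15, 10.16 and 10.17. The 516.2 mg/kg arrays read 10.10, 10.26 and 10.27, and the 1032.5 mg/kg arrays 9.97, 10.00 and 10.33. All 9 of these arrays lay above every vehicle array, while the 64.6 and 129.2 mg/kg arrays, at 9.59 to 9.88, lay inside the vehicle range. The rise was 0.53 (SE 0.092, 1.44-fold, adjusted p = 0.0032, limma) at 258.1 mg/kg, 0.58 (1.49-fold, adjusted p = 0.00078) at 516.2 mg/kg and 0.46 (1.38-fold, adjusted p = 0.0033) at 1032.5 mg/kg. A pair of dimmer probe sets for the gene had log2 changes of 0.37 (adjusted p = 0.14) and 0.23 (adjusted p = 0.39) at 1032.5 mg/kg, so neither passed there. The first of them rose by the slope alone (adjusted p = 0.047), a call lost when any of 15 single arrays was left out, with array weights and with the replicate block.

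Sdhaf3, a factor needed to fit the iron-sulphur subunit into complex II, also rose from 258.1 mg/kg. Vehicle arrays read 8.48 to 8.94 (median 8.80). The arrays read 9.34, 8.95 and 9.50 at 258.1 mg/kg, 9.23, 9.27 and 9.46 at 516.2 mg/kg, and 9.52, 9.35 and 9.26 at 1032.5 mg/kg. None of these 9 arrays fell inside the vehicle range, although replicate 2 at 258.1 mg/kg lay next to its upper end. The rise was 0.50 (SE 0.113, adjusted p = 0.020, limma) at 258.1 mg/kg, 0.56 (1.47-fold, adjusted p = 0.0056) at 516.2 mg/kg and 0.62 (1.54-fold, adjusted p = 0.0016) at 1032.5 mg/kg. The call at 258.1 mg/kg was lost without replicate 1 or replicate 3 of that dose, and with only those groups in the fit. Atp5if1 and Sdhaf3 were also the only members whose slope passed among the 15 dosed arrays alone, with no vehicle array in the fit.

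Complex II itself, which the Sdh genes encode and which also serves the citric acid cycle, gave no call. Sdha, the flavoprotein that oxidises succinate, had log2 changes of 0.06 (adjusted p = 0.80, limma) at 516.2 mg/kg and 0.28 (adjusted p = 0.15) at 1032.5 mg/kg. Its arrays at 1032.5 mg/kg read 11.86, 11.76 and 11.71, against 11.30 to 11.81 (median 11.48) for the vehicle, so the groups overlapped. Sdhb, the iron-sulphur subunit, differed by 0.07 and 0.12 at those doses.

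In complex I, the first and largest enzyme of the chain, the genes with calls were Ndufv1, Ndufs1, Ndufa9 and Ndufv3. Ndufv1, the subunit that binds NADH and the flavin, read 11.00 to 11.26 (median 11.14) in vehicle arrays. It read 11.50, 11.50 and 11.42 at 516.2 mg/kg and 11.54, 11.30 and 11.46 at 1032.5 mg/kg. All 6 arrays lay above the vehicle range, and the rises were 0.35 (SE 0.077, adjusted p = 0.011, limma) and 0.30 (adjusted p = 0.021). The first was lost without replicate 1 of its dose, and the second without replicate 1 or 3 of its dose or with only those groups in the fit. The F test over all doses passed narrowly (adjusted p = 0.048). That call was lost without any 1 of 17 arrays, under loess scaling, with the replicate block and with the 5′ minus 3′ covariate.

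Ndufs1, the largest core subunit and a carrier of iron-sulphur clusters, read 10.89 to 11.34 (median 11.01) in vehicle arrays and 11.37, 11.55 and 11.71 at 516.2 mg/kg. The groups did not overlap, and the rise of 0.47 (SE 0.123, 1.38-fold) had an adjusted p of 0.028 (limma). That call was lost without vehicle replicate 1, 2 or 3 or 516.2 mg/kg replicate 2 or 3, with the 5′ minus 3′ covariate and with only those groups in the fit. Ndufa9, an accessory subunit that holds the peripheral arm to the membrane arm, read 11.35 to 11.47 (median 11.37) in vehicle arrays and 11.74, 11.63 and 11.61 at 516.2 mg/kg. All 3 were above the vehicle range, and the rise of 0.28 (adjusted p = 0.031) was lost without any 1 of 6 arrays (vehicle replicates 1 to 4, 516.2 mg/kg replicates 1 and 3), under loess scaling and with the replicate block. The other core subunits, Ndufs3, Ndufs7, Ndufs8 and Ndufv2, had changes of 0.09, 0.05, 0.15 and 0.11 at 516.2 mg/kg and passed nowhere. Of the 14 Ndufa accessory genes the median change at 1032.5 mg/kg was −0.04, and of the 11 Ndufb genes −0.01. Ndufa4 differed by −0.02 at 516.2 mg/kg and −0.01 at 1032.5 mg/kg.

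Ndufv3, an accessory subunit of the NADH-binding module with a short and a long protein form, had probe sets that moved in opposite directions. The dimmer one read 7.78 to 8.22 (median 8.07) in vehicle arrays, 8.56, 8.69 and 8.50 at 516.2 mg/kg, and 8.71, 8.67 and 8.96 at 1032.5 mg/kg. These 6 arrays were above every vehicle array, and the rises were 0.55 (SE 0.116, 1.46-fold, adjusted p = 0.0081, limma) and 0.74 (1.67-fold, adjusted p = 0.00036). The brighter one read 11.53 to 11.79 (median 11.61) in vehicle arrays and 11.25, 11.40 and 11.34 at 1032.5 mg/kg. It fell by 0.32 on the log2 scale there (adjusted p = 0.031), with all 3 arrays below the vehicle range. That fall was lost without vehicle replicate 2 or 5 or any 1 of the 1032.5 mg/kg arrays, under median scaling and with the replicate block.

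Within each array, the log2 difference between the Ndufv3 probe sets, dimmer minus brighter and set to a vehicle mean of 0, ran from −0.14 to 0.14 over the vehicle arrays. At 64.6 mg/kg it was 0.19, 0.20 and 0.43, at 129.2 mg/kg 0.67, 0.64 and 0.55, and at 258.1 mg/kg 0.31, 0.67 and 0.76. At 516.2 mg/kg it was 0.61, 0.80 and 0.55, and at 1032.5 mg/kg 1.07, 0.87 and 1.23. All 15 dosed arrays lay above all 6 vehicle arrays, the lowest dose included. Over the whole array 9609 pairs of probe sets name the same gene, and 21 of them (0.219%) separated dosed from vehicle arrays completely; 41 pairs (0.427%) differed at 1032.5 mg/kg by as much as this one. Of the 12 pairs of member probe sets, 1 separated them, the Ndufv3 pair itself. This difference was chosen after its values were seen and is given without a test. RefSeq lists 2 Ndufv3 transcripts, and which of them each probe set reads was not determined.

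In complex III, which passes electrons from ubiquinol to cytochrome c, Uqcrc1, a large core protein on the matrix side, read 12.16 to 12.43 (median 12.40) in vehicle arrays and 12.65, 12.67 and 12.68 at 516.2 mg/kg. The groups did not overlap, and the rise was 0.32 (SE 0.079, adjusted p = 0.020, limma); it was lost without 516.2 mg/kg replicate 1 or 3, under loess scaling and with the replicate block. Uqcrfs1, the Rieske iron-sulphur protein, read 12.12 to 12.43 (median 12.31) in vehicle arrays and 12.55, 12.60 and 12.72 at 1032.5 mg/kg. All 3 lay above the vehicle range, and the rise of 0.31 (adjusted p = 0.032) was lost without any 1 of 6 arrays (vehicle replicates 1, 2 and 4, and each of its dose), with the 5′ minus 3′ covariate and with only those groups in the fit. Uqcrc2, the partner of Uqcrc1, rose only by the slope (0.09 per dose step, adjusted p = 0.0057), with changes of 0.37 (adjusted p = 0.10) and 0.40 (adjusted p = 0.076) at the 2 highest doses. Its slope was lost on the molar dose, and its dimmer probe set differed by 0.81 at 1032.5 mg/kg (adjusted p = 0.051). The small subunits lay below the vehicle mean at 1032.5 mg/kg and did not pass: Uqcr10 by −0.14, Uqcrh by −0.24, Uqcrq by −0.13 and Uqcr11 by −0.06.

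Complex IV, cytochrome c oxidase, held no call at any dose or by the slope. Cox4i1, the ubiquitous regulatory subunit, read 12.93 to 13.13 (median 13.04) in vehicle arrays and 13.11, 13.21 and 13.28 at 1032.5 mg/kg, an overlap, with a change of 0.16 (adjusted p = 0.21, limma). Its hypoxia-linked lung form Cox4i2 stayed below the lower quartile, with a mean of 4.83 over all arrays. Cox5a, a nuclear subunit next to the catalytic core, read 7.80 to 8.16 (median 7.89) in vehicle arrays and had changes of 0.23 at 516.2 mg/kg and −0.16 at 1032.5 mg/kg. Its other probe set, which also names another gene, is among the 7 left out. None of the isoform pairs held a call. Cox6a1 differed by 0.16 and Cox6a2 by −0.12 at 516.2 mg/kg, Cox8a by −0.01 and Cox8b by 0.10, Cox6b1 by 0.03 and the testis form Cox6b2 by 0.30. Cox7a1, the muscle form of Cox7a, differed by 0.05.

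In complex V, besides Atp5if1, Atp5f1b and Atp5f1c gave calls at single doses. Atp5f1b, the catalytic beta subunit, read 13.61 to 13.76 (median 13.67) in vehicle arrays and 13.88, 13.89 and 13.99 at 1032.5 mg/kg. The groups did not overlap, and it rose by 0.23 (SE 0.062, 1.18-fold, adjusted p = 0.025, limma). The call was lost without vehicle replicate 2 or 1032.5 mg/kg replicate 2 or 3, with the 5′ minus 3′ covariate, with the replicate block and with only those groups in the fit. Atp5f1c, the gamma subunit that forms the central shaft, read 12.89 to 13.11 (median 12.99) in vehicle arrays and 13.21, 13.30 and 13.32 at 516.2 mg/kg. Again there was no overlap; the rise was 0.28 (adjusted p = 0.028), lost without vehicle replicate 2 or 4 or any 1 of the 516.2 mg/kg arrays, with the 5′ minus 3′ covariate and with only those groups in the fit. Atp5f1a, the alpha subunit, had changes of 0.07 and 0.13 at the 2 highest doses (adjusted p = 0.67 and 0.45). Atp5pb, a subunit of the peripheral stalk, rose by the slope alone (0.05 per step, adjusted p = 0.039), and 13 arrays each lost that call when left out.

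Set apart by their current symbols, a grouping chosen after the values were seen and given without a test, the head and membrane subunits of complex V had medians of opposite sign at 1032.5 mg/kg. Of the 6 membrane subunits (Atp5mc3, Atp5me, Atp5mf, Atp5mg, Atp5mk and Atp5mpl) all 6 lay below the vehicle mean at 1032.5 mg/kg, by −0.24 to −0.04, with a median of −0.19, and none passed. The 5 F1 subunits had a median of 0.13 there, with 3 above 0 and with Atp5f1e, the small epsilon subunit, at −0.26. The difference between both means within an array, set to a vehicle mean of 0, ran from −0.05 to 0.05 over vehicle arrays. It was 0.23, 0.21 and 0.18 at 1032.5 mg/kg and 0.22, 0.22 and 0.11 at 516.2 mg/kg. At 64.6 mg/kg it was 0.08, 0.06 and 0.13, at 129.2 mg/kg 0.14, 0.12 and 0.10, and at 258.1 mg/kg 0.02, 0.16 and 0.03. Of the 15 dosed arrays, 13 lay above all vehicle arrays, the exceptions being 258.1 mg/kg replicates 1 and 3. No other gene groups were compared in this way, so that count has no background. The 4 stalk subunits (Atp5p) had a median change of 0.07 at 1032.5 mg/kg, with 2 above 0 and 2 below. With the 5′ minus 3′ difference of the array's control probe sets as a covariate, the medians at 1032.5 mg/kg were 0.092 for the F1 subunits and −0.18 for the membrane subunits.

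Among the other assembly factors, Sdhaf2, which helps attach the flavin to Sdha, rose at 516.2 mg/kg by 0.30 (adjusted p = 0.046, limma). Its arrays read 9.79, 9.42 and 9.64 there against 9.21 to 9.46 (median 9.28) in the vehicle group, with replicate 2 inside the vehicle range; leaving out any 1 of 6 arrays lost the call (vehicle replicates 1 to 4, 516.2 mg/kg replicates 1 and 3), as did loess scaling, a trended robust variance, the 5′ minus 3′ covariate and only those groups in the fit. Ndufaf8, a small complex I assembly factor, read 8.92, 8.79 and 8.99 at 1032.5 mg/kg against 9.15 to 9.49 (median 9.29) in the vehicle group. The groups did not overlap, and it fell by 0.41 on the log2 scale (adjusted p = 0.023), a call lost without 1032.5 mg/kg replicate 1 or 2 and under median scaling. Ndufaf1, an early complex I factor, rose by the slope (0.07 per step, adjusted p = 0.033) and at no single dose; the call was lost without any 1 of 6 arrays, with the replicate block, on the molar dose and from dosed arrays alone.

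**Figure D4:**
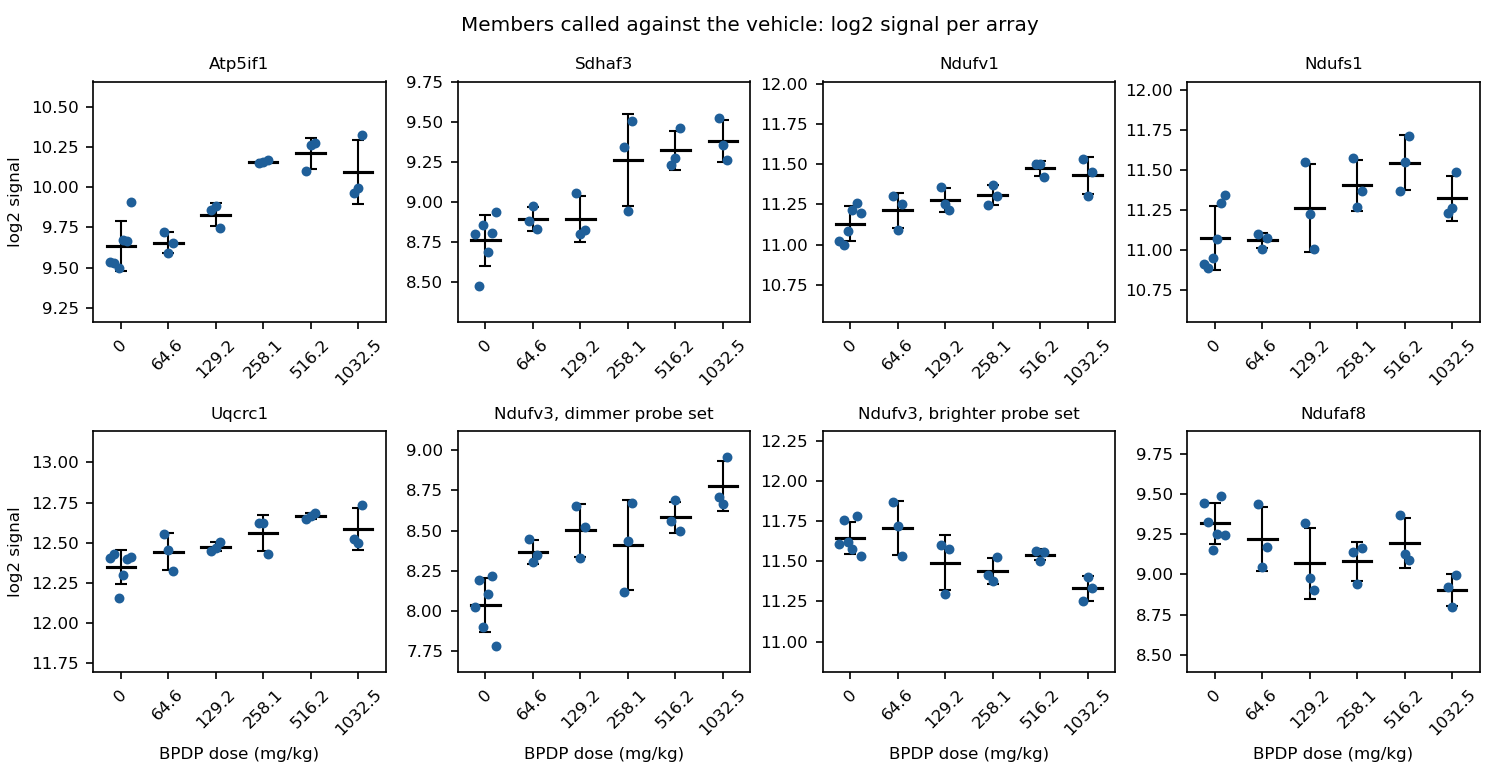
Points are single arrays, lines group means and error bars SD (6 vehicle arrays, 3 per dose) of the log2 signal against BPDP dose in mg/kg, for 7 called genes, with Ndufv3 shown by both its probe sets; every panel spans the same log2 range. Atp5if1 and Sdhaf3 lie above the vehicle arrays from 258.1 mg/kg, and the Ndufv3 probe sets part in opposite directions.

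Of the 19 calls at single doses, 7 held with every array left out and under every alternative that kept their probe set. They belonged to 3 genes: Atp5if1 at the 3 highest doses, and Sdhaf3 and the dimmer Ndufv3 probe set at the 2 highest. Removing probe sets of suffix _s_at, _x_at or _a_at drops the Atp5if1 probe set, so its calls were not tested there. Keeping 1 probe set per gene likewise drops the dimmer Ndufv3 one. The other 12 calls were lost under at least 1 alternative or without at least 1 array. In 10 member genes with several probe sets, the changes at 1032.5 mg/kg had 1 sign in 8; Ndufv3 and Ndufaf7 were the exceptions.

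Lists of genes around the complexes, chosen by name, held calls at 516.2 mg/kg, where 8.93% of all genes passed. Of 36 assembly factors whose symbols fall outside the rule, 12 rose and none fell at 516.2 mg/kg, with a median change of 0.25. Among them Acad9, a complex I assembly factor related to acyl-CoA dehydrogenases, rose by 0.77 (adjusted p = 0.00017, limma), Nubpl, which supplies iron-sulphur clusters to complex I, by 0.75, and Cox15, an enzyme of heme A synthesis, by 0.56. Lyrm7, also among the 12, lay below the lower quartile of signals. Without 516.2 mg/kg replicate 1 the count of 12 was 4, and without replicate 3 it was 6.

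Of 73 mitochondrial ribosomal proteins, 15 rose and none fell at 516.2 mg/kg (median 0.21), among them Mrpl1 (0.51) and Mrpl14 (0.42). This count was 2 without 516.2 mg/kg replicate 3, 3 without replicate 1, and 6, 8, 9 and 8 without vehicle replicates 3, 1, 2 and 4. Of 14 genes in the citric acid cycle list, which takes in pyruvate dehydrogenase genes, 5 rose (median 0.22). Among them were Suclg1 (0.40) and Suclg2 (0.37), which make succinyl-CoA synthetase. Idh3b (0.40) and Idh3g (0.37), regulatory subunits of isocitrate dehydrogenase, and Pdhx (0.61), a pyruvate dehydrogenase gene, were the others. The count of 5 was 1 without 516.2 mg/kg replicate 1 or 3 and 2 without vehicle replicate 1 or 2. It was 3 without 516.2 mg/kg replicate 2 or vehicle replicate 3 or 4. Of 15 genes for coenzyme Q synthesis, cytochrome c and electron transfer flavoprotein 4 rose (median 0.32): Coq5 (0.69), Coq6 (0.35), Coq7 (0.45) and Coq9 (0.38). The count was 6 without vehicle replicate 6, 2 without vehicle replicate 2, and 1 without vehicle replicate 1, 3 or 4 or 516.2 mg/kg replicate 1 or 3. Of 23 import genes 4 rose (median 0.14), with Timm21 at 0.59 and Tomm70 at 0.45; the count was 2 without 516.2 mg/kg replicate 1 and 1 without replicate 3.

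At 1032.5 mg/kg, where 8.95% of all genes passed, the counts of higher and lower calls were 5 and 1 for the assembly factors outside the rule, 4 and 0 for the ribosome, 2 and 0 for the citric acid cycle, 2 and 0 for the carriers and 2 and 0 for import. Leaving out 1 array moved these counts: the assembly factors to 2 without 1032.5 mg/kg replicate 2 or 3 and to 3 without replicate 1 or vehicle replicate 1 or 3, the ribosome to 2 without 1032.5 mg/kg replicate 2, and the citric acid cycle to 6, 4, 3 and 3 without vehicle replicates 6, 5 and 4 and 1032.5 mg/kg replicate 2. The carriers went to 1 without vehicle replicates 1 to 4 or 1032.5 mg/kg replicate 1 or 3, and import to 3 without vehicle replicate 6. None of the 6 genes for ADP, phosphate and proton carriers passed at any dose. Tfam, which packages and transcribes mitochondrial DNA, was the only 1 of 12 regulators called at a dose, with a rise of 0.51 at 1032.5 mg/kg (adjusted p = 0.0030, limma); Nrf1, Gabpa, Yy1 and Esrra had changes of −0.13, 0.11, −0.06 and 0.10 there. COX1 and COX2, complex IV subunits from mitochondrial DNA, had changes of −0.03 and 0.10 and did not pass.

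**Figure D5:**
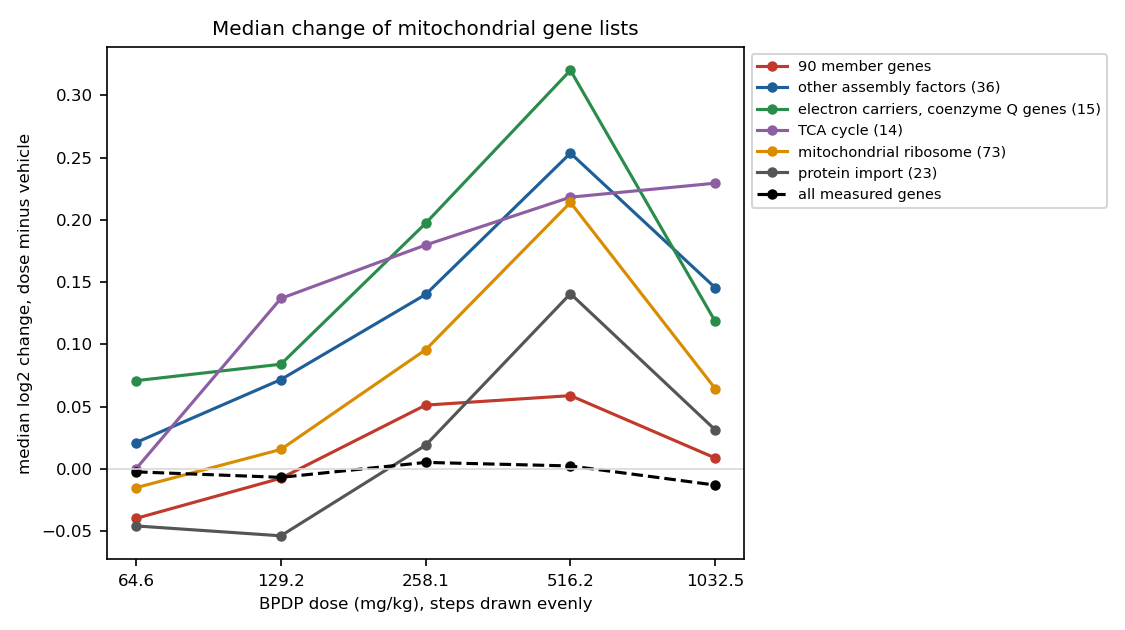
Lines join the median log2 change against the vehicle of each gene list at the 5 BPDP doses (mg/kg, steps drawn evenly), with 1 probe set per gene and the number of genes in the legend. At 516.2 mg/kg the member genes stand at 0.06, the other assembly factors at 0.25 and the electron carriers at 0.32.

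Some markers of other liver cells also passed in these groups, most of them lower. Of all genes, 3.56% passed at 258.1 mg/kg, 8.93% at 516.2 mg/kg and 8.95% at 1032.5 mg/kg. Of all probe sets, 2% were called lower at 516.2 mg/kg and 2.85% at 1032.5 mg/kg. Those called higher were 1.36%, 4.02% and 3.3% at the 3 highest doses. A single call in a list of so few genes says little beside these shares. Of 10 stellate cell and fibroblast markers 5 fell at 516.2 mg/kg and 2 at 1032.5 mg/kg; their mean level was 7.18 to 7.72 over vehicle arrays and 6.67 to 7.05 at 516.2 mg/kg. The first count was 1 without 516.2 mg/kg replicate 1, and 3 without replicate 3 or vehicle replicate 2 or 4. The count at 1032.5 mg/kg was 1 without vehicle replicate 2 or 5 or 1032.5 mg/kg replicate 2 or 3. Of 7 Kupffer cell markers 6 fell by the slope, beside 15% of all genes called by it. None passed at 516.2 mg/kg, where their median change was −0.53 (2 passed without vehicle replicate 5, and 1 without vehicle replicate 6 or 516.2 mg/kg replicate 1). At 1032.5 mg/kg 2 (Adgre1 and Cd163) fell, and the mean level of the 7 was at most 9.38 on any array, against 9.48 to 10.01 in the vehicle group. The Kupffer cell count at 1032.5 mg/kg was 0 without 1032.5 mg/kg replicate 3, 1 without its replicate 2 or vehicle replicate 1, 2 or 3, and 4 without vehicle replicate 5. Both red cell genes, Hbb and Alas2, fell at 1032.5 mg/kg (1 without replicate 2 of that dose, none without replicate 3), with mean levels of 8.04 to 9.08 against 9.78 to 11.21. Of 3 cholangiocyte markers 1 (Epcam) rose at 258.1, 516.2 and 1032.5 mg/kg, by 0.54, 0.73 and 0.71. The list's median change was 0.25, −0.16 and −0.09 at these doses. Its mean level was 6.73 to 7.26 in the vehicle group and 6.93 to 7.61 at 258.1 mg/kg. That level was 6.93 to 7.23 at 516.2 mg/kg and 6.96 to 7.23 at 1032.5 mg/kg, inside the vehicle range. Of 5 endothelial markers 1 (Kdr) fell at 516.2 mg/kg, a call lost without replicate 1 of that dose, with mean levels of 8.84 to 9.27 against 8.99 to 9.80. Of 7 lymphocyte markers 1 (Cd8a) fell at 1032.5 mg/kg (2 without vehicle replicate 5 or 1032.5 mg/kg replicate 1), with mean levels of 5.79 to 5.91 against 5.97 to 6.28. None of the 9 hepatocyte markers passed at either dose, and 1 fell by the slope. Besides the Kupffer cell markers, the slope also called lower 3 of 10 stellate cell and fibroblast, 2 of 5 endothelial and 2 of 7 lymphocyte markers. Both red cell genes fell by it too, and 1 cholangiocyte marker rose. Of all probe sets, 4.61% fell and 5.87% rose by the slope. In whole liver, fewer cells of a type and less RNA per cell cannot be told apart. The part of these shifts in the members' changes was not tested.

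The 5′ minus 3′ difference of the control probe sets averaged −1.95 ± 0.29 (SD, 6 arrays) in the vehicle group, −2.30 ± 0.64 (3 arrays) with 516.2 mg/kg and −1.54 ± 0.37 (3 arrays) with 1032.5 mg/kg. With it as a covariate 6 members were called at 516.2 mg/kg, beside 4.55% of all probe sets in that fit, and 7 at 1032.5 mg/kg, beside 5.89%. The 7 arrays with the highest upper quartile of signal had a median member mean of 11.18, and the 7 with the lowest 11.08.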

How the data were processed

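Liver RNA was measured in 21 samples on Affymetrix rat expression arrays. The authors deposited log2 signals per probe set, summarised and normalized by RMA per the submitters' processing notes; RMA equalises signal distributions between arrays, so a shift common to most genes would not show. A difference is therefore relative to the other genes. Depth does not apply to arrays, and the number of arrays limits the precision.

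Probe sets were named from the platform annotation, updated through Entrez IDs with RefSeq (GRCr8); all 101 member probe sets matched. Of the 31042 probe sets left after removing 57 controls, 20826 name 1 gene, 436 several and 9780 none. A gene was represented by its probe set of highest mean. limma 3.58.1 (R 4.3.3) fitted the 6 groups together, with contrasts of each dose against the vehicle and of the 2 highest doses, an F test over the doses and, separately, a slope on the dose step; p-values were corrected by the Benjamini-Hochberg method across every probe set tested, with a threshold of 0.05. The script was tested on simulated data.

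Named genes are a list of reference subunits, up to 20 members called at a dose, by the slope or by F, the tissue isoform pairs, and up to 4 called genes of each other list. The members and lists were chosen with earlier results of these data known. Alternatives were other scalings, filters, variance models, array weights, the replicate block, the 5′ minus 3′ covariate, fewer samples and each array left out. Promoter sequences are from RefSeq. Pairs of probe sets, complex V groups and the lists without each array were chosen after seeing the data.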

Additional observations from a re-analysis of the deposited data

Results flagged for a closer look

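Of 38 vehicle values tested for a sample far from the rest, 2 stood apart. The Cox8a level of vehicle replicate 5 was 13.31, with the next vehicle array at 13.19, and the Ndufa9 level of vehicle replicate 6 was 11.47, with the next at 11.38. The gap was 0.654 and 0.731 of the group's range, above the critical value of 0.625 for 6 arrays; chance alone gives such a value in about 1 of 20 groups. Both arrays also had the highest member means of the vehicle group. The Ndufa9 call at 516.2 mg/kg was kept without vehicle replicate 6 and lost without any 1 of vehicle replicates 1 to 4.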

How the results depend on the processing

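No result changed sign among called members. With array weights the number of members called was 10 at 129.2 mg/kg, 15 at 1032.5 mg/kg and 17 by the F test, beside 6.86%, 9.29% and 14.4% of all probe sets. With only the groups compared it was 1 at 258.1 mg/kg and 5 at 1032.5 mg/kg, beside 1.53% and 5.18%. Without probe sets of suffix _s_at, _x_at or _a_at it was 1 at 258.1 mg/kg. The slope gave 7 on the molar dose and 2 from dosed arrays alone, beside 5.95% and 2.28%. The 3 smaller fits used fewer samples and the suffix filter fewer probe sets. The cause of these differences was not tested.

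With each array left out in turn, the counts ran from 0 to 0 at 64.6 and 129.2 mg/kg and between the 2 highest doses, from 1 to 2 at 258.1 mg/kg, 4 to 10 at 516.2 mg/kg, 4 to 12 at 1032.5 mg/kg, 12 to 16 for the slope and 3 to 4 for F. The low counts came without vehicle replicate 2 (5 at both 516.2 and 1032.5 mg/kg), 516.2 mg/kg replicate 1 or 3 (4 each) and 1032.5 mg/kg replicate 1, 2 or 3 (4, 4 and 5), and the 12 without vehicle replicate 6. At 258.1 mg/kg replicate 3 gave the 1. The difference of the member mean ran from −0.066 to −0.014 at 64.6 mg/kg, −0.050 to 0.023 at 129.2 mg/kg, 0.023 to 0.107 at 258.1 mg/kg, 0.078 to 0.107 at 516.2 mg/kg and −0.010 to 0.056 at 1032.5 mg/kg. Other scalings gave 0.040 (loess) and 0.139 (median) at 516.2 mg/kg, and shifted the median gene by at most 0.050.

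No clear pairing of arrays by replicate number was seen, though this check cannot exclude one. Over 18 arrays, same-number deviations correlated at −0.28 to 0.394 (median −0.0152, beside −0.00682 for different numbers). Among the 3 numbers, 9 of 18 arrays correlated best with their own. With the replicate block 3 members were called at 258.1 mg/kg, 8 at 516.2 mg/kg, 9 at 1032.5 mg/kg, 13 by the slope and 3 by F, beside 2.49%, 4.34%, 4.78%, 8.92% and 3.4% of all probe sets.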
